A study of Mus musculus with 7 samples.

Results

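The genes described here are the integrins and the proteins that tie them to the actin skeleton. They were taken from the count table by name, as every gene whose symbol begins with Itga or Itgb together with the talins Tln1 and Tln2, the kindlins Fermt1, Fermt2 and Fermt3, vinculin (Vcl) and integrin-linked kinase (Ilk). The rule gave 38 of the 57180 genes in the table: 26 integrin chains, 7 adaptors and 5 genes that carry the name of an integrin without being one of its chains. Their RNA was compared between FOXP3-high Treg cells (3 libraries) and FOXP3-low Treg cells (4 libraries), both sorted from B16-F0 melanomas grown in Foxp3-Cre-YFP mice. FOXP3 is the transcription factor that defines regulatory T (Treg) cells, B16-F0 is a mouse melanoma line, and the strain name describes a Cre-YFP fusion placed under Foxp3. The labels give the genotype of both groups as WT, and the mice of both groups carried the reporter and the tumour. The sources used here state neither sort gates nor ages, nor whether libraries came from separate mice, so p-values measure the spread between these libraries, which may be technical.

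Integrins are receptors made of an alpha and a beta chain, and the pairing of the chains sets what the receptor binds. Talin and kindlin bind the beta tail from inside the cell and switch the receptor to its high-affinity shape, and vinculin and integrin-linked kinase strengthen its link to actin. On T cells, alphaL-beta2 (LFA-1) binds ICAM proteins, alpha4 with beta1 or beta7 binds VCAM-1, fibronectin or MAdCAM-1, and alphaE-beta7 (CD103) binds E-cadherin on epithelial cells. AlphaM-beta2 (CD11b, Mac-1) and alphaX-beta2 (CD11c) are best known from macrophages, neutrophils and dendritic cells.

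The libraries held 9048771 to 11202260 counts in the FOXP3-high group and 12177761 to 14546999 in the FOXP3-low group, and values are given as CPM, the counts of a gene scaled to a common library total after TMM normalization. Foxp3 itself averaged 698 ± 95.4 CPM in FOXP3-high cells (SD, n = 3) and 357 ± 44.3 CPM in FOXP3-low cells (SD, n = 4), with 639 CPM in the lowest FOXP3-high library and 397 CPM in the highest FOXP3-low library. Summed levels of 17 T cell identity genes ran from 4673 to 5412 CPM in FOXP3-high and from 3194 to 3672 CPM in FOXP3-low, and 16 of the 17 were called higher in FOXP3-high. Markers of other cells were also present. Of 20 macrophage and monocyte markers 19 were called lower in FOXP3-high, and without the other one, Ccr2, which T cells also express, they summed to 228 to 330.4 CPM in FOXP3-high, against 1911 to 2369 CPM in FOXP3-low. The 12 neutrophil markers summed to 53.2 to 116 CPM in FOXP3-high, against 919 to 1205 CPM in FOXP3-low; Ly6g, Camp and Elane had 0 counts over FOXP3-high and 20, 1 and 8 counts over FOXP3-low in that order. Summed B and plasma cell markers were 93.0 to 123 CPM in FOXP3-high and 399 to 531 CPM in FOXP3-low, and summed CD8 T cell and NK cell markers 27.7 to 37.2 CPM in FOXP3-high and 80.2 to 105 CPM in FOXP3-low. Summed dendritic cell markers were 47.8 to 59.8 CPM in FOXP3-high and 114 to 152 CPM in FOXP3-low, while summed melanoma markers were 3489.9 to 4794 CPM in FOXP3-high and 1450.4 to 2578 CPM in FOXP3-low. Both libraries numbered 3 stood apart in endothelial markers: these 12 genes summed to 293, 76.4 and 634 CPM in FOXP3-high 1 to 3, and to 138, 190.3, 592 and 170.2 CPM in FOXP3-low 1 to 4. In RNA from sorted populations, fewer cells of a type and less RNA per cell cannot be told apart. What part these other RNAs had in the results below was not tested. Their direction is named again beside some genes only. Every gene higher in FOXP3-high moved in the direction of the T cell identity and melanoma markers. Every gene lower there moved in that of the macrophage, neutrophil, dendritic, B and plasma cell, and CD8 T and NK cell markers.

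Of the 38 genes, 30 had enough counts to be tested and 8 did not. At an adjusted p under 0.05 in edgeR's quasi-likelihood test (Benjamini-Hochberg over 15838 genes), 15 of the 30 differed between the groups, which is 50% against 46.5% of all genes tested. Of these, 10 were higher in FOXP3-high (33.3%, against 21.8% of all genes) and 5 were lower (16.7%, against 24.6%). The 7 called genes with a fitted change of 2-fold or more were Itgae, Itgb3 and Itga10, which were higher, and Itgam, Itgax, Itga5 and Itgb5, which were lower; 14.6% of all genes met that pair of limits. In 13 genes no FOXP3-high library overlapped a FOXP3-low library, against 50.7% of all genes. The median log2 fold change, FOXP3-high minus FOXP3-low, was 0.18 over the 30 genes and 0.01 over all genes. Given these background shares, the counts alone set the genes apart little from other genes, and the description below turns on which chains moved and how far.

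**Figure D1:**
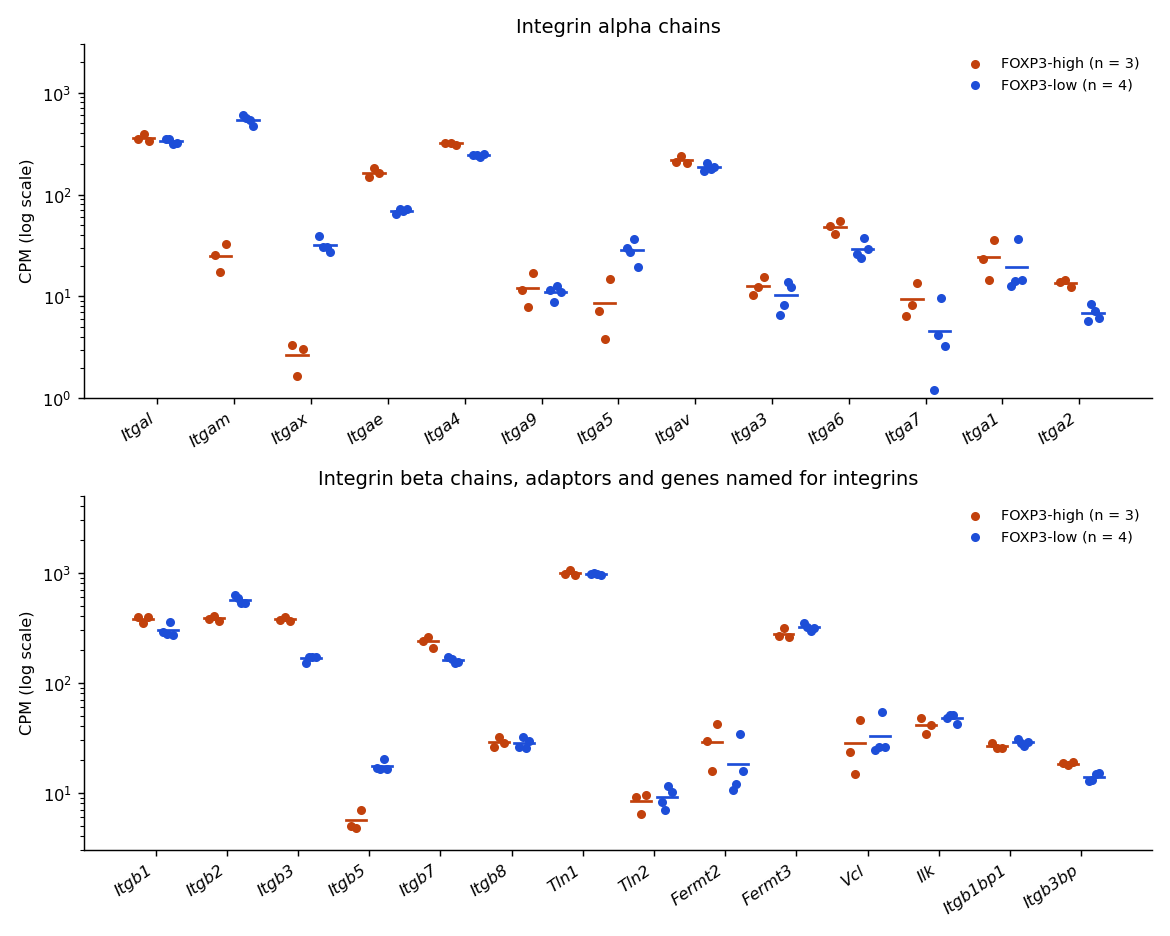
CPM (log scale) of the 27 genes that averaged 5 CPM or more, FOXP3-high libraries (n = 3) left of FOXP3-low libraries (n = 4) for each gene; points are libraries and bars are means. Itgam and Itgax sit far lower in FOXP3-high, Itgae and Itgb3 sit higher, and Tln1 is level near the top of both groups.

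The direction of several genes depended on how the libraries were scaled. When the libraries were scaled to the summed T cell identity genes in place of TMM, the median of all genes moved by -0.51 (log2), to -0.50, and the calls among the 30 genes became 3 higher and 12 lower in FOXP3-high, against 691 higher and 8346 lower over all genes. Itgae, Itgb3 and Itga2 were called higher under both scalings, and Itgam, Itgax, Itga5, Itgb2 and Itgb5 were called lower under both. These 8 calls also held in each of the other alternatives run, which included other tests, other filters on low counts and each library left out in turn. The share of all called genes that held in this way is not given here.

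**Figure D2:**
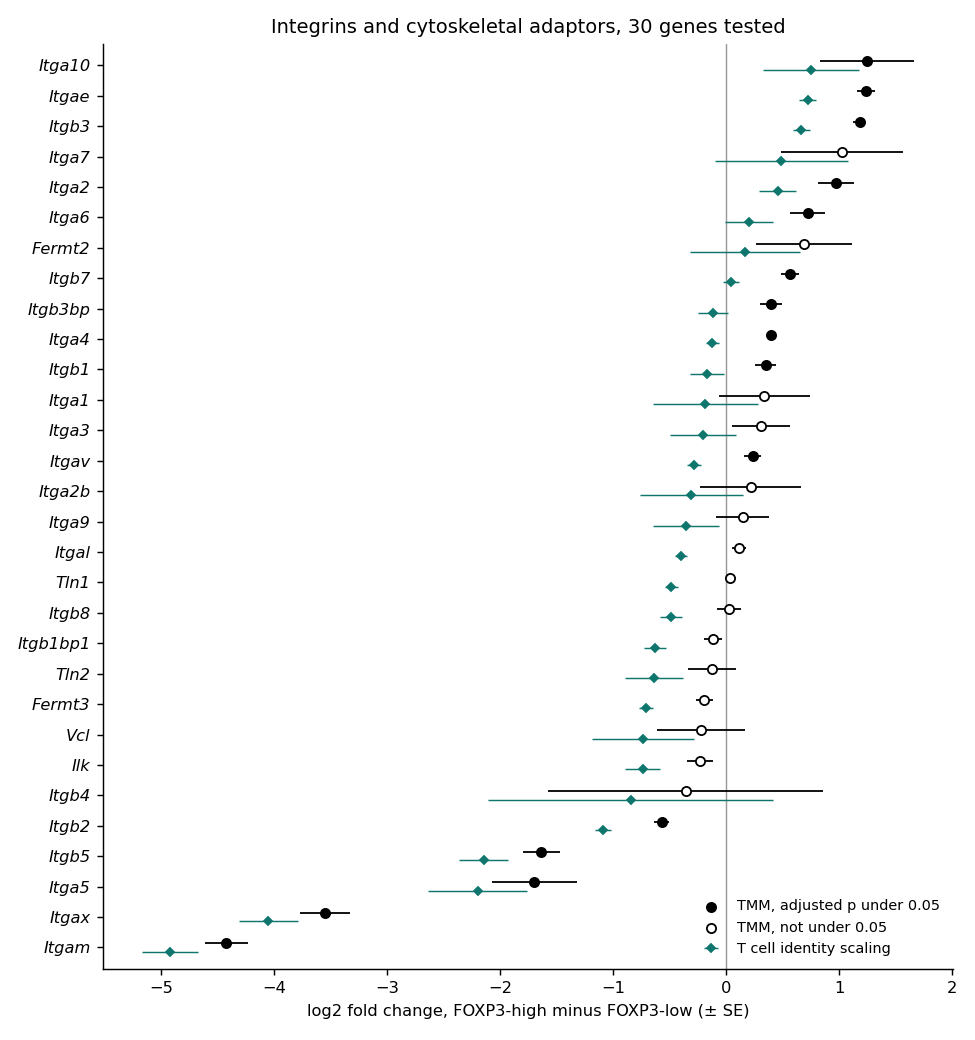
Fitted log2 fold change (FOXP3-high minus FOXP3-low, ± SE) of the 30 genes tested, under TMM scaling (circles, filled where the adjusted p was under 0.05) and under scaling to 17 T cell identity genes (diamonds). The diamonds lie to the left by about the shift of the median gene, and Itgae, Itgb3 and Itga2 remain right of 0.

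The strongest contrast lay among the alpha chains that pair with beta2. Itgam, the alphaM chain (ENSMUSG00000030786, chromosome 7, 127661812 to 127717663, plus strand, GRCm39 per the submitters' processing notes), had 25.5, 17.3 and 32.7 CPM in FOXP3-high and 603, 559, 535 and 475 CPM in FOXP3-low. Every FOXP3-high library lay far below every FOXP3-low library, and the log2 fold change was -4.42 ± 0.191 (SE), or 21.5-fold lower, with an edgeR adjusted p of 2.90e-07. Itgax, the alphaX chain whose gene follows Itgam 11.056 kb downstream, had 3.35, 1.67 and 3.02 CPM in FOXP3-high and 39.6, 30.8, 30.4 and 27.0 CPM in FOXP3-low. It was 11.7-fold lower in FOXP3-high (log2 fold change -3.55 ± 0.221, edgeR adjusted p = 1.88e-06), again without overlap. Itgad, the alphaD chain 3.719 kb beyond Itgax, was too sparse to test, with 6 counts over FOXP3-high and 22 over FOXP3-low. Itgam overlaps the model Gm49368 on its own strand, which averaged 6.97 CPM in FOXP3-high and 131 CPM in FOXP3-low, so reads of the pair may be split between them. Both chains moved with the markers of myeloid cells, whose median log2 fold change was -4.06 for macrophages and monocytes, -3.84 for neutrophils and -2.55 for dendritic cells.

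The promoters of Itgam and Itgax are shown because these neighbouring genes had the largest falls. They are the 250 bases before the annotated start on the plus strand, from RefSeq on GRCm38.p6, chr7:128062390-128062639 for Itgam and chr7:128129300-128129549 for Itgax. Capitals mark the purine-rich motif GAGGAA, a core bound by PU.1 and other ETS factors, or its reverse complement TTCCTC.
Itgam: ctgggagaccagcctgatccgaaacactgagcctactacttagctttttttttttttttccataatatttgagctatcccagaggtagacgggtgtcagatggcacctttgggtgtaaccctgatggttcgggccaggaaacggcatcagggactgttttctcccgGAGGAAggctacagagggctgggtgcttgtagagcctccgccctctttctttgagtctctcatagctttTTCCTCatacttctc
Itgax: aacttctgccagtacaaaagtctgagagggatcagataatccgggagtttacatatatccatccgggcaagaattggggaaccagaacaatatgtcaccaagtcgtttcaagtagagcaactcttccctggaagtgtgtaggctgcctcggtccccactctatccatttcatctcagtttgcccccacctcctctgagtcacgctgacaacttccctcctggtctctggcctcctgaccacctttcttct
The Itgam window holds 2 matches, which begin 15 and 84 bases before the start, and the Itgax window holds none of these letters. A match on either strand was found in 7639 of 32851 promoter windows of this length (23.3%), and in 10 of the 31 windows of the genes described here (32.3%), which cover 28 of the 38 genes. A match is a description of the sequence and not a measured site.

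The other abundant alpha partner of beta2 was not called under TMM scaling. Itgal, the alphaL chain of LFA-1 (ENSMUSG00000030830, chromosome 7, 126895432 to 126934309, plus strand), had 353, 390.0 and 339 CPM in FOXP3-high and 348, 349, 310.4 and 322 CPM in FOXP3-low. The ranges overlapped and the log2 fold change was 0.12 ± 0.0635 (edgeR adjusted p = 0.167). It was 0.18 with total counts as the scale (adjusted p = 0.0173) and turned to -0.40 under T cell identity scaling (adjusted p = 1.84e-04). Itgb2, the beta2 chain they share, had 380.5, 405 and 366 CPM in FOXP3-high and 625, 589.6, 533 and 532 CPM in FOXP3-low, and was 1.48-fold lower in FOXP3-high with no overlap (log2 fold change -0.57 ± 0.0675, edgeR adjusted p = 1.03e-04). Itgb2 fell in the same direction as the macrophage and neutrophil markers, whose part in it was not tested. A fall in beta2 thus stood beside overlapping levels of alphaL and far lower alphaM and alphaX.

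Dividing counts by gene length gives shares within a set of chains that do not depend on how libraries are scaled. They do rest on the deposited gene lengths, so the order of different genes can change with the length used. Among the alpha partners of beta2, Itgal made up 90.3, 93.9 and 87.8% in FOXP3-high and 29.2, 31.1, 29.5 and 32.9% in FOXP3-low. Itgam made up 8.55, 5.43 and 11.1% in FOXP3-high and 66.2, 65.1, 66.5 and 63.3% in FOXP3-low. The leading alpha partner was therefore alphaL in each FOXP3-high library and alphaM in each FOXP3-low library. The ratio of Itgal to Itgb2 per length was 0.436 ± 0.0101 in FOXP3-high and 0.272 ± 0.00973 in FOXP3-low (SD, n = 3 and 4), and that of Itgam to Itgb2 was 0.0403 ± 0.0141 in FOXP3-high and 0.579 ± 0.0276 in FOXP3-low.

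**Figure D3:**
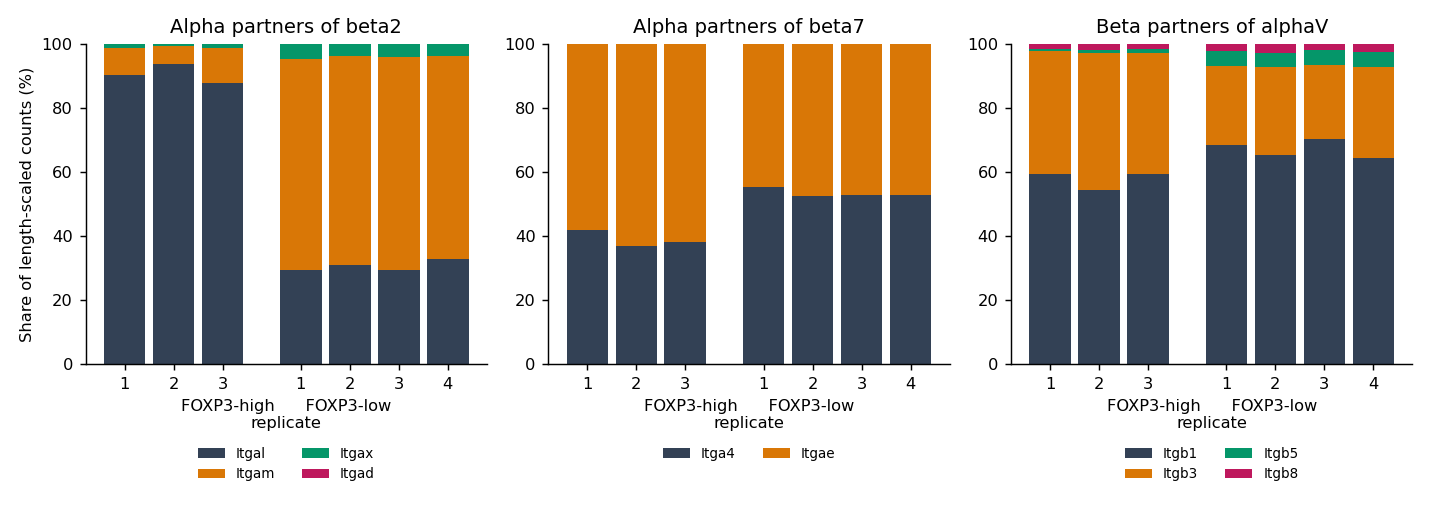
Share (%) of length-scaled counts held by each chain among the alpha partners of beta2, the alpha partners of beta7 and the beta partners of alphaV, with 1 bar per library, FOXP3-high left of FOXP3-low. Itgal fills 87.8 to 93.9% of the beta2 partners in FOXP3-high and 29.2 to 32.9% in FOXP3-low, and Itgae and Itgb3 take larger shares in FOXP3-high.

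Itgae, the alphaE chain that with beta7 forms CD103, had the smallest adjusted p of the alpha chains called higher. This gene (ENSMUSG00000005947, chromosome 11, 72981409 to 73038272, plus strand) had 147, 182 and 162 CPM in FOXP3-high and 63.9, 72.6, 68.2 and 72.8 CPM in FOXP3-low. The lowest FOXP3-high library was above the highest FOXP3-low library, and the gene was 2.36-fold higher in FOXP3-high (log2 fold change 1.24 ± 0.0800, edgeR adjusted p = 2.30e-06), or 0.72 on the log2 scale under T cell identity scaling. It overlaps Haspin, a mitotic kinase gene on the opposite strand, which ran the other way at 11.6 CPM in FOXP3-high and 20.01 CPM in FOXP3-low. Its partner Itgb7, the beta7 chain, had 241, 262 and 208 CPM in FOXP3-high and 170.1, 163, 152 and 155 CPM in FOXP3-low (log2 fold change 0.56 ± 0.0773, edgeR adjusted p = 2.65e-04). Under T cell identity scaling Itgb7 stood at 0.04 (adjusted p = 0.617). Beta7 pairs with only alphaE and alpha4. Counted per length, Itgae made up 58.2, 63.2 and 61.7% of these 2 alpha chains in FOXP3-high, against 44.6, 47.6, 47.2 and 47.3% in FOXP3-low.

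Itga4, the alpha4 chain, had 322, 323 and 306 CPM in FOXP3-high and 242, 244, 232 and 248 CPM in FOXP3-low. The groups did not overlap and the difference was small, 1.31-fold (log2 fold change 0.39 ± 0.0438, edgeR adjusted p = 7.10e-05), turning to -0.12 under T cell identity scaling (adjusted p = 0.106). Per length, Itgae stood at 1.58 ± 0.166 times Itga4 in FOXP3-high and 0.877 ± 0.0475 times Itga4 in FOXP3-low (SD, n = 3 and 4). This order rests on the deposited lengths of 13978 bases for Itga4 and 4581 bases for Itgae. In CPM, Itga4 stood above Itgae in each library. Itga9, the other chain of the alpha4 subfamily, had 11.6, 7.90 and 16.9 CPM in FOXP3-high and 11.5, 8.79, 12.8 and 10.96 CPM in FOXP3-low, which overlapped (log2 fold change 0.15 ± 0.236, edgeR adjusted p = 0.653). Its sign turned without FOXP3-high 3 (-0.16) and under T cell identity scaling (-0.36).

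The promoters of Itga4 and Itgb7 are shown as those of a pair whose products form the gut-homing receptor alpha4-beta7 and whose RNAs were both called higher. They are the 250 bases before the start in RefSeq on GRCm38.p6, chr2:79255176-79255425 on the plus strand for Itga4 and chr15:102231936-102232185 on the minus strand for Itgb7. Capitals mark the RUNX core motif TGTGGT or its reverse complement ACCACA.
Itga4: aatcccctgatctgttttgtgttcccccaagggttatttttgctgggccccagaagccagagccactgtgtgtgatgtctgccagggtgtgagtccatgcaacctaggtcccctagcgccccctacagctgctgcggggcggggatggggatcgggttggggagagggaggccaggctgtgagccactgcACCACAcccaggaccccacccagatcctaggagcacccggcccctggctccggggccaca
Itgb7: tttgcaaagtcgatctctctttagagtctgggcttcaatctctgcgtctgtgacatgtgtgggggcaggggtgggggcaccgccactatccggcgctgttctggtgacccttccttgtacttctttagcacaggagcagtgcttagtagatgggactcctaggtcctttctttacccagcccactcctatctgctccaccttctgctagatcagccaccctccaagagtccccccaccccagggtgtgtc
The Itga4 window holds 1 match and the Itgb7 window holds neither these letters nor GAGGAA on either strand. The motif was found in 4614 of the 32851 windows (14.05%) and in 5 of the 31 windows of the genes described here (16.1%).

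Itgb3, the beta3 chain that pairs with alphaV and, in platelets, with alphaIIb, had the smallest adjusted p of the genes called higher. It had 368, 395 and 366 CPM in FOXP3-high and 150.4, 170.3, 170.0 and 172 CPM in FOXP3-low. No libraries overlapped, and Itgb3 was 2.27-fold higher in FOXP3-high (log2 fold change 1.18 ± 0.0585, edgeR adjusted p = 6.06e-07), or 0.66 on the log2 scale under T cell identity scaling. Itga2b, the alphaIIb chain, averaged 1.10 ± 0.534 CPM in FOXP3-high and 0.950 ± 0.315 CPM in FOXP3-low (log2 fold change 0.22 ± 0.446, edgeR adjusted p = 0.729, and -0.31 under T cell identity scaling). Summed over 10 genes, platelet markers were 2.23 to 2.27 CPM in FOXP3-high and 8.30 to 13.4 CPM in FOXP3-low. Ppbp and Tubb1 had 0 counts over FOXP3-high and 28 and 50 over FOXP3-low, while Gp5, Gp6 and Treml1 had 0 over FOXP3-high and 0, 1 and 3 over FOXP3-low. Summed melanoma markers were 3489.9 to 4794 CPM in FOXP3-high and 1450.4 to 2578 CPM in FOXP3-low. The part of either in Itgb3 was not tested.

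The alphaV chain and its other beta partners moved less or the other way. Itgav, the alphaV chain, had 209, 239 and 202 CPM in FOXP3-high and 171, 204, 177 and 186 CPM in FOXP3-low, with overlap (log2 fold change 0.23 ± 0.0761, edgeR adjusted p = 0.0299). That call was lost without FOXP3-high 1 (adjusted p = 0.074), FOXP3-high 2 (0.0737), FOXP3-low 1 (0.0543) or FOXP3-low 3 (0.0681), and T cell identity scaling turned it to -0.28 (adjusted p = 0.00313). Itgb5, the beta5 chain, known for binding vitronectin, had 4.99, 4.79 and 6.98 CPM in FOXP3-high and 16.7, 16.3, 20.3 and 16.3 CPM in FOXP3-low. It was 3.11-fold lower in FOXP3-high without overlap (log2 fold change -1.64 ± 0.167, edgeR adjusted p = 3.98e-05), the direction also of the macrophage markers (median log2 fold change -4.06), whose part in it was not tested. Itgb8, which with alphaV activates latent TGF-beta, had 25.9, 32.0 and 28.4 CPM in FOXP3-high and 25.9, 32.0, 25.4 and 29.5 CPM in FOXP3-low (log2 fold change 0.02 ± 0.109, edgeR adjusted p = 0.876). The ranges nearly coincided, and the sign turned without FOXP3-high 2 (-0.031) or FOXP3-low 3 (-0.035) and under T cell identity scaling (-0.49, adjusted p = 0.0017). Itgb6, the epithelial partner of alphaV, had 0 counts in each library.

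Itgb1, the beta1 chain, which pairs with the largest number of alpha chains, had 394, 347 and 398 CPM in FOXP3-high and 288, 278, 356 and 270.3 CPM in FOXP3-low. FOXP3-low 3 lay inside the FOXP3-high range, and the log2 fold change was 0.35 ± 0.0953 (edgeR adjusted p = 0.0138). The call was lost without FOXP3-high 1 (0.30, adjusted p = 0.077), and the sign turned under T cell identity scaling (-0.17, adjusted p = 0.361). Among the beta partners of alphaV, counted per length, Itgb3 made up 38.3, 42.9 and 37.8% in FOXP3-high and 24.7, 27.6, 23.2 and 28.4% in FOXP3-low, while Itgb1 averaged 57.7 ± 2.87% in FOXP3-high and 67.1 ± 2.74% in FOXP3-low (SD, n = 3 and 4). Itgb1 thus led this set in each library, and Itgb3 held more of it in each FOXP3-high library. Itgb3 per length stood at 3.17 ± 0.146 times Itgav in FOXP3-high and 1.64 ± 0.101 times Itgav in FOXP3-low.

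Itga5, the alpha5 chain of the fibronectin receptor, had 7.22, 3.79 and 14.9 CPM in FOXP3-high and 29.8, 27.4, 36.3 and 19.6 CPM in FOXP3-low. It was 3.25-fold lower in FOXP3-high without overlap (log2 fold change -1.70 ± 0.377, edgeR adjusted p = 0.00470), and stood at -2.34 without FOXP3-high 3, its highest FOXP3-high library. Fibronectin itself (Fn1) averaged 142 ± 102 CPM in FOXP3-high and 642 ± 137 CPM in FOXP3-low (SD, n = 3 and 4). Itga5 fell in the same direction as the macrophage markers (median log2 fold change -4.06), whose part in it was not tested. Itga8, another chain that binds the RGD sequence, was not tested, with 23 counts over FOXP3-high and 48 over FOXP3-low.

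Of the laminin-binding chains, Itga6 (alpha6) had 48.8, 41.1 and 54.5 CPM in FOXP3-high and 26.2, 23.6, 37.7 and 29.4 CPM in FOXP3-low. The groups did not overlap (log2 fold change 0.72 ± 0.157, edgeR adjusted p = 0.00435), and the call was lost under T cell identity scaling (0.20, adjusted p = 0.444). Itga3 (alpha3) overlapped, with 10.4, 12.5 and 15.4 CPM in FOXP3-high and 6.58, 8.22, 13.7 and 12.5 CPM in FOXP3-low (log2 fold change 0.31 ± 0.257, edgeR adjusted p = 0.357), and stood at -0.21 under T cell identity scaling. Itga7 (alpha7), known as a muscle laminin receptor, had 6.45, 8.24 and 13.6 CPM in FOXP3-high and 1.22, 4.15, 9.74 and 3.26 CPM in FOXP3-low (log2 fold change 1.02 ± 0.540, edgeR adjusted p = 0.153). FOXP3-low 3 was the highest of its group, and without it Itga7 was called higher (1.70, adjusted p = 0.00927). Itgb4, the beta4 chain that pairs with alpha6 in epithelia, ranged from 0 to 2.36 CPM in FOXP3-high and from 0 to 2.10 CPM in FOXP3-low (log2 fold change -0.36 ± 1.22, edgeR adjusted p = 0.838).

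Of the collagen-binding chains, Itga2 (alpha2) had 13.8, 14.5 and 12.3 CPM in FOXP3-high and 5.77, 8.38, 7.15 and 6.19 CPM in FOXP3-low. It was 1.97-fold higher in FOXP3-high with no overlap (log2 fold change 0.97 ± 0.159, edgeR adjusted p = 7.99e-04), and the call held under T cell identity scaling (0.46, adjusted p = 0.0396). Its neighbour Itga1 (alpha1), 20.996 kb away on chromosome 13, had 23.5, 14.4 and 36.0 CPM in FOXP3-high and 12.7, 14.2, 36.4 and 14.6 CPM in FOXP3-low (log2 fold change 0.34 ± 0.403, edgeR adjusted p = 0.536). In both groups the library numbered 3 was the highest. Without FOXP3-low 3 Itga1 was called higher (0.83, adjusted p = 0.0347), while without FOXP3-high 3 it stood at -0.04 and under T cell identity scaling at -0.19. Itga10 (alpha10), a chain of cartilage, was called higher on 36 counts over FOXP3-high and 24 over FOXP3-low, with 1.20, 0.891 and 1.32 CPM in FOXP3-high and 0.731, 0.488, 0.280 and 0.418 CPM in FOXP3-low (log2 fold change 1.25 ± 0.417, edgeR adjusted p = 0.0337). That call was lost without any 1 of FOXP3-high 1 (adjusted p = 0.114), FOXP3-high 3 (0.115), FOXP3-low 2 (0.056), FOXP3-low 3 (0.0792) or FOXP3-low 4 (0.0644), and Itga10 overlaps the model Gm42957 on its own strand. It was also lost under T cell identity scaling (0.75, edgeR adjusted p = 0.159), and in all it held in 6 of 16 alternatives. Itga11 (alpha11) had 10 counts over FOXP3-high and 27 over FOXP3-low and was not tested.

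The adaptors that switch integrins on and anchor them had fitted log2 fold changes from -0.23 (Ilk) to 0.69 (Fermt2). None of the 6 tested was called in edgeR's quasi-likelihood test (adjusted p under 0.05), against 46.5% of all genes tested. At an unadjusted p under 0.05, 1 was lower in FOXP3-high and 0 were higher, DESeq2 called 1 lower, and limma-voom called 0. The shares of all genes for these 3 counts are not given here. Under T cell identity scaling edgeR called 3 of the 6 lower (Tln1, Fermt3 and Ilk) and 0 higher, beside 8346 lower and 691 higher of all 15838 genes. The gene lower at an unadjusted p and by DESeq2 was Fermt3, kindlin-3, the kindlin of blood cells, with 266, 312 and 258 CPM in FOXP3-high and 346, 321, 292 and 315 CPM in FOXP3-low (log2 fold change -0.19 ± 0.0779, edgeR adjusted p = 0.0685). It was called lower without FOXP3-high 2 (-0.26, adjusted p = 0.0144), without FOXP3-low 3 (-0.25, adjusted p = 0.0225) and by DESeq2 (-0.20, adjusted p = 0.0343), and most of all under T cell identity scaling (-0.71, adjusted p = 1.34e-05). In all it was called lower in 7 of 17 alternatives. Fermt1, kindlin-1, had 1 count over FOXP3-high and 5 over FOXP3-low and was not tested.

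Tln1, the talin that activates leukocyte integrins, had the highest CPM of the 38 genes. It had 965, 1056 and 958 CPM in FOXP3-high and 969, 987, 971 and 959 CPM in FOXP3-low, with a log2 fold change of 0.03 ± 0.0445 (edgeR adjusted p = 0.599). This near-level value rests on the scale, since Tln1 stood at 0.10 with total counts (adjusted p = 0.0301) and at -0.49 under T cell identity scaling (adjusted p = 8.89e-05). Tln2, the second talin, had 9.20, 6.46 and 9.53 CPM in FOXP3-high and 8.29, 6.996, 11.4 and 10.04 CPM in FOXP3-low (log2 fold change -0.13 ± 0.210, edgeR adjusted p = 0.660), and its sign turned without FOXP3-high 2 (0.052). Tln1 made up 99.5% of the length-scaled talin counts in FOXP3-high and 99.5% in FOXP3-low. Ilk had 47.3, 34.4 and 41.5 CPM in FOXP3-high and 48.1, 51.2, 51.2 and 42.2 CPM in FOXP3-low (log2 fold change -0.23 ± 0.115, edgeR adjusted p = 0.135), and was called lower without FOXP3-high 1 (-0.37, adjusted p = 0.0387) and under T cell identity scaling (-0.74, adjusted p = 0.00273). Ilk overlaps Taf10 and Rrp8 on the opposite strand.

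Fermt2 and Vcl tracked the libraries numbered 3. Fermt2, kindlin-2, the kindlin of mesenchymal and endothelial cells, had 29.5, 15.8 and 41.9 CPM in FOXP3-high and 10.5, 11.9, 34.2 and 15.6 CPM in FOXP3-low (log2 fold change 0.69 ± 0.425, edgeR adjusted p = 0.220). Without FOXP3-low 3 it was called higher (1.20, adjusted p = 0.011). Vcl had 23.4, 14.8 and 46.1 CPM in FOXP3-high and 24.6, 26.1, 54.5 and 25.9 CPM in FOXP3-low (log2 fold change -0.22 ± 0.389, edgeR adjusted p = 0.678), and its sign turned without FOXP3-high 2 (0.10) or FOXP3-low 3 (0.13). In both groups the library numbered 3 had the highest sum of endothelial markers, and it was the highest in 11 of the 27 genes that averaged 5 CPM or more: Itga1, Itga3, Itga5, Itga6, Itga7, Itga9, Itgb1, Itgb5, Tln2, Fermt2 and Vcl. The 4 called genes among them kept their calls with both libraries numbered 3 left out, at -2.19 for Itga5 (adjusted p = 1.89e-04), 0.77 for Itga6 (adjusted p = 9.73e-04), 0.41 for Itgb1 (adjusted p = 0.00139) and -1.75 for Itgb5 (adjusted p = 3.00e-05). In the same edgeR fit, Itga7 (1.34, adjusted p = 0.0244) and Fermt2 (0.85, adjusted p = 0.0245), not called with all libraries, were called higher. Fibroblast and pericyte markers without Thy1, which T cells also express, followed the same order, with sums of 224, 34.5 and 551 CPM in FOXP3-high 1 to 3 and of 76.2, 129, 707 and 115 CPM in FOXP3-low 1 to 4. The part of these cells in the 11 genes was not tested. How many of all genes were likewise highest in library 3 of both groups was not computed. The 11 of 27 thus has no background share beside it.

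**Figure D4:**
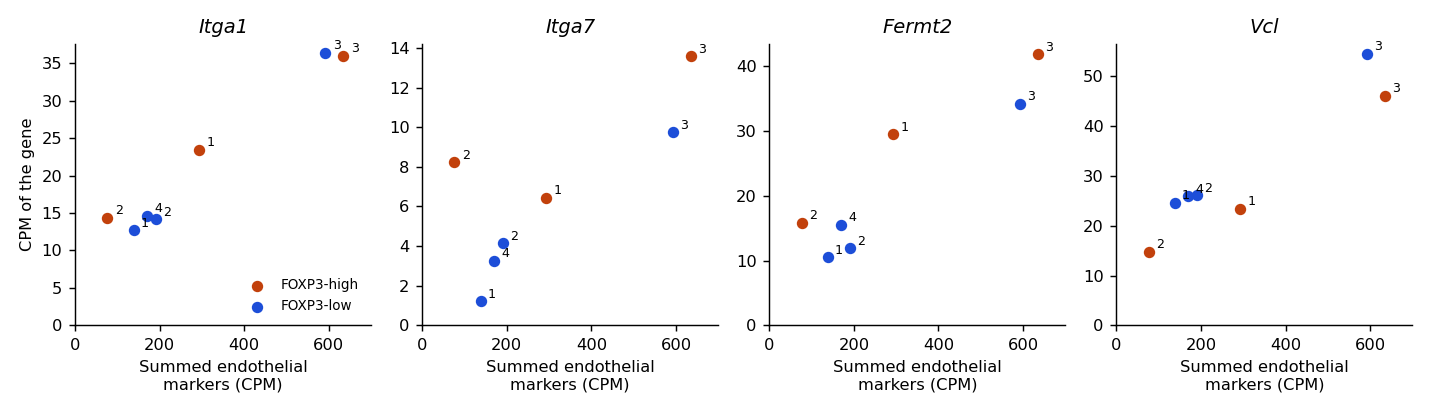
CPM of Itga1, Itga7, Fermt2 and Vcl in each library against the summed CPM of 12 endothelial markers, FOXP3-high and FOXP3-low in separate colours with the replicate number beside each point. Both libraries numbered 3 lie at the right, at 634 CPM in FOXP3-high and 592 CPM in FOXP3-low, and at or near the top of each panel.

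The genes named for integrins that are not integrin chains were mostly sparse. Itgb3bp, a centromere protein despite its name, had 18.4, 17.7 and 18.9 CPM in FOXP3-high and 12.8, 13.1, 14.7 and 15.1 CPM in FOXP3-low, without overlap (log2 fold change 0.40 ± 0.1, edgeR adjusted p = 0.00935), and stood at -0.12 under T cell identity scaling. Itgb1bp1 (ICAP-1), which binds the beta1 tail and opposes talin, had 28.03, 25.5 and 25.5 CPM in FOXP3-high and 30.7, 28.5, 26.6 and 28.8 CPM in FOXP3-low (log2 fold change -0.12 ± 0.0811, edgeR adjusted p = 0.264), and was called lower under T cell identity scaling (-0.63, adjusted p = 4.75e-04). Both overlap genes on the opposite strand, Pgm1 and Efcab7 for Itgb3bp, Cpsf3 and Asap2 for Itgb1bp1. Itgb1bp2, Itgbl1 and Itgb2l had at most 10 counts over FOXP3-high and 27 over FOXP3-low and were not tested.

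Levels of different genes were compared per length, as CPM divided by gene length in kilobases (RPKM). The order below rests on the deposited gene lengths. Itgb2 had the highest level of the 38 genes in both groups, at 126 ± 6.38 RPKM in FOXP3-high and 187 ± 15.03 RPKM in FOXP3-low (SD, n = 3 and 4). In FOXP3-high it was followed by Tln1 (101 ± 5.57 RPKM), Itgb1 (93.0 ± 6.99), Itgb7 (85.4 ± 9.77) and Itgb3 (63.7 ± 2.74). Tln1 and Itgb1, and Itgb1 and Itgb7, lay within their spread of each other there. In FOXP3-low it was followed by Itgam (108 ± 10.6 RPKM), Tln1 (99.1 ± 1.17), Itgb1 (73.0 ± 9.60) and Itgb7 (57.8 ± 2.96), and Itgam and Tln1 lay within their spread of each other. By rank, Itgam came 15th in FOXP3-high and 2nd in FOXP3-low, Itgae 8th in FOXP3-high and 12th in FOXP3-low, and Itgb3 5th in FOXP3-high and 8th in FOXP3-low.

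Genes around the integrins were taken from lists of the signals that activate them, their partners at the membrane and their ligands. Of 21 genes that control activation from inside the cell, 12 were called higher and 3 lower in FOXP3-high, against 21.8% higher and 24.6% lower of all genes, and the median log2 fold change was 0.29 against 0.01 over all genes. Rasgrp2 (CalDAG-GEFI), the exchange factor that loads Rap1 in platelets and leukocytes, averaged 44.7 ± 2.53 CPM in FOXP3-high and 13.8 ± 2.37 CPM in FOXP3-low (SD, n = 3 and 4, as for the other means here; log2 fold change 1.69 ± 0.123, edgeR adjusted p = 4.66e-06). Rasa3, a GTPase-activating protein that opposes Rap1, averaged 203 ± 18.5 CPM in FOXP3-high and 108 ± 1.32 CPM in FOXP3-low (0.91 ± 0.0625, edgeR adjusted p = 3.38e-06), so an activator and an inhibitor of Rap1 were both higher. Stk4, the MST1 kinase that acts with Rap1 in lymphocyte adhesion, averaged 512 ± 30.6 CPM in FOXP3-high and 358 ± 9.65 CPM in FOXP3-low (0.51 ± 0.0497, edgeR adjusted p = 2.77e-05, and -0.0035 under T cell identity scaling). Skap2, an adaptor of integrin signalling in myeloid cells, averaged 71.3 ± 3.10 CPM in FOXP3-high and 156 ± 11.6 CPM in FOXP3-low (-1.13 ± 0.0699, edgeR adjusted p = 1.78e-06). Skap2 fell in the same direction as the macrophage and neutrophil markers, whose part in it was not tested. Under T cell identity scaling the counts became 2 higher, Rasgrp2 (1.18) and Rasa3 (0.39), and 11 lower, beside 691 higher and 8346 lower of all 15838 genes.

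**Figure D5:**
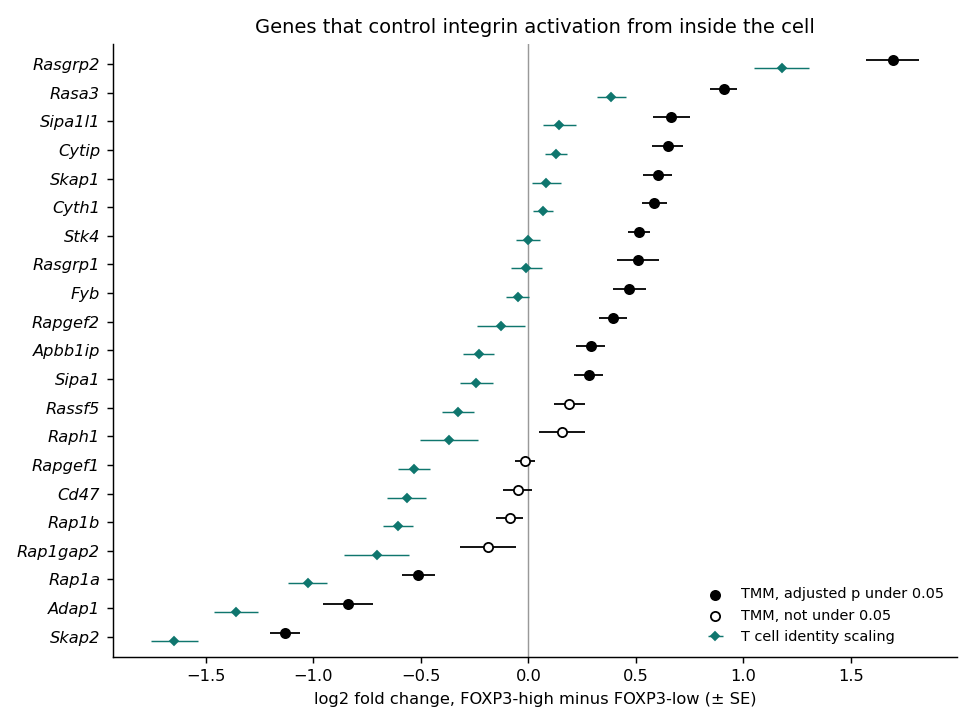
Fitted log2 fold change (FOXP3-high minus FOXP3-low, ± SE) of the 21 genes that control integrin activation from inside the cell, under TMM scaling (circles, filled where the adjusted p was under 0.05) and under scaling to 17 T cell identity genes (diamonds). Rasgrp2 lies highest and Skap2 lowest, and most diamonds lie left of 0.

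Of 32 tested genes of focal adhesions and of talin and kindlin partners, 6 were called higher and 8 lower, near the 21.8% and 24.6% of all genes, with a median log2 fold change of 0.05. The lower ones with the smallest adjusted p were Zyx (zyxin; 101 ± 1.73 CPM in FOXP3-high, 159 ± 7.11 CPM in FOXP3-low), Pxn (paxillin; 37.6 ± 5.20 CPM in FOXP3-high, 66.1 ± 4.30 CPM in FOXP3-low) and Flna (filamin A; 482 ± 11.9 CPM in FOXP3-high, 581 ± 20.7 CPM in FOXP3-low). Their log2 fold changes were -0.65, -0.81 and -0.27, with edgeR adjusted p-values of 8.36e-06, 1.38e-04 and 8.05e-04 in that order. Zyx, Pxn and Flna fell in the same direction as the macrophage and neutrophil markers, whose part was not tested. With T cell identity scaling, 0 of the list were called higher and 19 lower, beside 691 and 8346 of all 15838 genes. Of 6 genes listed here as negative regulators, 4 were called higher, against 21.8% of all genes. These were Krit1, which binds ICAP-1 (log2 fold change 0.41, edgeR adjusted p = 0.00124), Nisch, which binds alpha5 (0.31, adjusted p = 0.00157), Sharpin, which holds integrins inactive at the alpha tail (0.46, adjusted p = 0.00939), and Slk (0.15, adjusted p = 0.0356). Under T cell identity scaling each of these 4 stood below 0, from -0.37 (Slk) to -0.044 (Sharpin), and 0 of the 6 genes were called higher and 4 lower, while without FOXP3-high 1 the count of higher calls was 2.

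Among ligands displayed on cells, 1 of 12 tested was called higher and 4 lower, against 21.8% and 24.6% of all genes, with a median log2 fold change of -0.49; 2 were called higher without FOXP3-high 2, and 2 lower without FOXP3-low 2. L1cam, a cell adhesion molecule that alphaV-beta3 can bind, averaged 80.8 ± 5.05 CPM in FOXP3-high and 36.3 ± 3.65 CPM in FOXP3-low (1.15 ± 0.0881, edgeR adjusted p = 6.32e-06). Cdh1, E-cadherin, the ligand of alphaE-beta7, averaged 2.68 ± 0.235 CPM in FOXP3-high and 10.4 ± 1.43 CPM in FOXP3-low (-1.95 ± 0.182, edgeR adjusted p = 2.27e-05), the direction opposite to Itgae. The surface protein Cd200 (-0.85, edgeR adjusted p = 9.47e-04) and the semaphorin Sema7a, a ligand of alpha1-beta1 (-0.91, edgeR adjusted p = 0.0211), were lower in FOXP3-high. Cd200 was counted in this list although no integrin that binds it is named here. Cdh1, Cd200 and Sema7a fell in the same direction as the macrophage and neutrophil markers, and L1cam rose in that of the melanoma markers. The part of these markers was not tested. Icam1, the main ligand of LFA-1, averaged 267 ± 21.7 CPM in FOXP3-high and 272 ± 18.4 CPM in FOXP3-low (-0.03, edgeR adjusted p = 0.776, and -0.54 under T cell identity scaling with an adjusted p of 7.82e-05). That scaling left L1cam called higher (0.63) and the 4 lower genes of this list called lower, and Icam5 was called lower too.

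Of 27 tested ligands of the matrix and plasma, 3 were called higher and 7 lower, against 21.8% and 24.6% of all genes, with a median log2 fold change of 0.03. Under T cell identity scaling 1 was called higher and the same 7 lower, where most calls over all genes were lower. C3, the complement protein whose fragment alphaM-beta2 binds, averaged 59.0 ± 5.94 CPM in FOXP3-high and 354 ± 24.6 CPM in FOXP3-low (-2.58 ± 0.0842, edgeR adjusted p = 9.74e-08). Tgfbi, a matrix protein made by macrophages among others, averaged 13.7 ± 8.34 CPM in FOXP3-high and 350.2 ± 68.0 CPM in FOXP3-low (-4.65 ± 0.382, edgeR adjusted p = 9.80e-06). Spp1, osteopontin, which alphaV-beta3 binds, averaged 22.1 ± 10.3 CPM in FOXP3-high and 162 ± 20.03 CPM in FOXP3-low (-2.87 ± 0.263, edgeR adjusted p = 2.00e-05). These 3 fell beside the macrophage and neutrophil markers given above. Lrrc32 (GARP), the Treg surface protein that displays latent TGF-beta to alphaV-beta8, was counted in this list although it is not a matrix or plasma protein. It ran the other way, at 166 ± 16.3 CPM in FOXP3-high and 99.2 ± 8.72 CPM in FOXP3-low (0.74 ± 0.0858, edgeR adjusted p = 9.23e-05). Lrrc32 was also the gene called higher under T cell identity scaling (0.22, edgeR adjusted p = 0.0445).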

How the data were processed

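Stranded mRNA libraries were made from total RNA, per the labels' protocols. The authors deposited whole-number read counts per gene with gene coordinates and lengths, not normalized. The submitters' processing notes name the builds GRCm39 and GRCh38 and the tools featureCounts, STAR (version 2.5.3a) and fastp (version 0.23.4). The sources used here do not say how strand, multiply mapped reads or duplicates were treated, so overlapping genes may share reads.

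Samples were grouped and replicates numbered by their titles. Counts were filtered with filterByExpr (minimum count 10, minimum total 15), scaled by TMM and tested across all 15838 genes with edgeR 4.0.16 (glmQLFit, glmQLFTest; R 4.3.3), with an adjusted p threshold of 0.05. This step was tested on simulated data. Alternatives were DESeq2 1.42.0, voom in limma 3.58.1, other size factors and filters, T cell identity scaling, each library left out, both libraries numbered 3 left out, and a replicate block without FOXP3-low 4. RPKM and shares divide counts by the deposited gene length. Counts of other lists under the alternatives, and marker sums without Ccr2 or Thy1, were chosen after seeing the data. The genes and lists were chosen with earlier results of these data known.

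The label check gene Foxp3, each gene that averaged 5 CPM or more and each called gene were named, and in each further list up to 4 genes with the smallest adjusted p; 1 gene so chosen is not reported here. Icam1, Fn1 and Ccr2 were added after their values were seen. Replicates differed from each other by a chi-square of 3.98 to 12.2 per gene, so none was a copy of another's counts. This check cannot tell whether libraries shared RNA, a pool or a mouse.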

Additional observations from a re-analysis of the deposited data

Results flagged for a closer look

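Within the 4 FOXP3-low libraries, the gap between the highest or lowest library and its neighbour was compared with the whole range, for 38 quantities. This singled out 6, where chance gives about 1 in 20. In 5 of the 6 the library was FOXP3-low 3. It had 36.4 CPM of Itga1, where the other FOXP3-low libraries had 12.7 to 14.6 CPM. Vcl stood at 54.5 CPM there, against 24.6 to 26.1 CPM in the others, and Itgb5 at 20.3 CPM, against 16.3 to 16.7 CPM. Its summed endothelial markers came to 592 CPM, against 138 to 190.3 CPM, and its summed fibroblast and pericyte markers to 1499 CPM, against 811 to 904 CPM. The sixth was Itgb3 in FOXP3-low 1, at 150.4 CPM against 170.0 to 172 CPM in the others. The FOXP3-high group, with 3 libraries, was not examined in this way. Why these libraries stood apart was not tested.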

How the results depend on the processing

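Across 17 alternatives, the calls of Itgae, Itga2 and Itgb3 (higher) and of Itgam, Itgax, Itga5, Itgb2 and Itgb5 (lower) held, and 7 other calls, all higher, were lost or turned in at least 1. T cell identity scaling, which lowers each fold change by construction, gave 3 genes higher and 12 lower, and 691 higher and 8346 lower over all genes. In the lists it gave 2 higher and 11 lower for activation from inside the cell, 0 and 19 for focal adhesion, and 0 and 4 for negative regulators. For matrix and plasma ligands it gave 1 higher, the surface protein Lrrc32, and the 7 called lower under TMM stayed lower. It turned Itgal (-0.40), Itga4 (-0.12), Itga9 (-0.36), Itgav (-0.28), Itga3 (-0.21), Itga1 (-0.19), Itgb1 (-0.17), Itgb8 (-0.49), Tln1 (-0.49) and Itgb3bp (-0.12). Without a filter on low counts, Itgb8 (-0.019) and Tln1 (-0.011) turned and 2 focal adhesion genes were higher. Leaving out 1 library moved Itgb8 between -0.035 and 0.11, Tln2 between -0.22 and 0.052, Vcl between -0.77 and 0.13, Itga9 between -0.16 and 0.40, and Itga1 between -0.039 and 0.83. Without both libraries numbered 3, Itga9 (-0.082) and Itgb8 (-0.016) turned. The cause was not tested.

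With each library left out in turn, 7 to 11 of the genes were called higher and 5 to 6 lower, and over all genes 2718 to 3318 and 3412 to 3674. The ranges in the lists were 4 to 9 higher and 7 to 11 lower for focal adhesion, 2 to 5 higher for negative regulators, and 1 to 2 higher and 2 to 4 lower for surface ligands. The replicate block, fitted without FOXP3-low 4, gave 11 genes higher and 6 lower, with Itga7, Fermt2 and Fermt3 (lower) gained and Itga10 lost. The block and the loss of that library changed together here. Counts over all genes in this fit are not given here, so the gained calls are not shown to be particular to these genes. Replicate numbers did not consistently match the libraries: deviations of same-numbered libraries correlated at -0.12, 0.18 and 0.50 for numbers 1 to 3. FOXP3-high 1 correlated best with FOXP3-low 3 (0.16), FOXP3-high 2 with FOXP3-low 1 (0.41) and FOXP3-high 3 with FOXP3-low 3 (0.50). With so few libraries, these values cannot show whether libraries were paired by mouse or batch. The 8 genes not tested were too sparse to compare. Itgb4 and Itga2b had few counts and wide standard errors (1.22 and 0.446), so a difference there may have been missed. The call of Itga10 rests on few counts.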
